A study of Mus musculus with 4 samples.

Results

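Tubulins, kinesins and dynein subunits build the microtubule and the motors that move along it. Among the 24532 gene identifiers listed for the cerebellum of Kdm3b+/- mice and wild-type littermates, 82 had a mouse symbol that starts with Tuba, Tubb or Tubg, with Kif and a digit, or with Klc, Dync or Dynl; members were chosen by symbol alone. They comprised 17 alpha and beta tubulins, 7 genes of gamma tubulin and its ring complex, 38 kinesin motor chains, 4 kinesin light chains and 16 dynein subunits. A mean of at least 1 TPM (a transcript level that is scaled to transcript length and to the library total) was reached by 58 of the 82, and these were tested together with all other genes at that level, 13652 in all. The other 24 members, 19 kinesins and 5 tubulins, were below it.

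Kdm3b encodes a histone demethylase that removes methyl groups from lysine 9 of histone H3. The study asked what losing 1 of its 2 copies does to transcription in granule-cell-enriched (GCE) tissue, which was cut by hand from slices of the cerebellar vermis of adult male mice. Kdm3b+/- mice carried a gene-trap insertion in Kdm3b, on a C57Bl/6N background that had then been crossed to C57Bl/6J, and the WT mice were littermates without the insertion. Bulk RNA of 2 WT mice and 2 Kdm3b+/- mice was sequenced, 1 library per mouse. Each limma p-value below combines the spread between 2 mice of a genotype with a spread borrowed from all tested genes. The insertion is carried in the germ line, so it is present in every cell of these animals and not in granule cells alone.

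Microtubules are hollow polymers of alpha and beta tubulin pairs, and they are nucleated from ring complexes that hold gamma tubulin. Most kinesins walk toward the growing end of a microtubule and so carry cargo from the neuronal cell body into the axon, whereas cytoplasmic dynein walks toward the minus end and carries cargo back. Dynein is a large assembly in which a pair of heavy chains provides the motor, intermediate and light intermediate chains hold the assembly and its adaptors, and small light chains clasp the intermediate chains. Neurons transcribe these genes at high levels, and isotypes of each family differ between cell types.

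The Kdm3b transcript itself was listed at 9.10 and 10.996 TPM in WT and at 8.30 and 7.90 TPM in Kdm3b+/- mice. Both Kdm3b+/- values were below both WT values, and the difference did not pass the test (log2 fold change -0.27, SE 0.17, limma adjusted p = 0.424). The libraries held between 4.92 and 6.69 gigabases of aligned sequence. Granule cell markers had a summed level of 3598 and 4311 TPM in WT and 3690 and 3833 TPM in Kdm3b+/- mice, with 2 of 10 higher and 1 lower at an unadjusted p under 0.05. Purkinje cell markers summed to 1875 and 770 TPM in WT and to 1052 and 866 TPM in Kdm3b+/- mice, so that WT mouse 1 stood apart, and 2 of 10 were lower and 0 higher. Oligodendrocyte markers (15192 to 18156 TPM) had 1 of 10 higher and 2 lower, among them the DEX gene Mobp (log2 fold change -0.93, limma adjusted p = 0.0133), and astrocyte and Bergmann glia markers (2057 to 2513 TPM) had 2 of 10 higher and 3 lower, among them the DEX gene Aqp4 (1.10, limma adjusted p = 0.0329). Microglial markers (278 to 308 TPM) had 1 of 8 higher and 0 lower, and endothelial markers (274 to 314 TPM) 0 of 7 higher and 1 lower. Interneuron markers summed to 156 to 204 TPM in WT and 126 to 129 TPM in Kdm3b+/- mice, with 2 of 6 lower and 0 higher, and markers of ependymal and other ciliated cells to 39.2 to 39.5 TPM and 49.0 to 50.6 TPM, with 3 of 8 higher and 0 lower. Choroid plexus markers summed to 0.9898 to 3.71 TPM, and red blood cell markers to 1142 to 1928 TPM, with 3 of 5 higher and 1 lower. No gene of these marker lists was at 0 in every library. A further list, of dividing cell markers, held no gene at the tested level and is not described. The part of the cell mixture in the results below was not tested, and in such bulk tissue fewer cells of a type and less RNA per cell cannot be told apart.

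None of the 58 tested members was a DEX gene (a fold change above 1.2 with an adjusted p below 0.05), beside 63 of 13652 tested genes, or 0.461%. At an unadjusted p under 0.05, 4 members were higher in Kdm3b+/- mice (6.90% of the tested members, beside 5.47% of all tested genes) and 5 were lower (8.62%, beside 11.5%). All 4 of the higher members were dynein light chains, namely Dynll1, Dynlt1b, Dynlt1c and Dynlrb1. The 5 lower ones were Tubgcp2 and Tubgcp5 of the gamma tubulin ring complex, the dynein intermediate chain Dync1i1, and the kinesins Kif3c and Kif17. Both Kdm3b+/- values lay above both WT values in 20 members (34.5%, beside 19.2% of all tested genes) and below them in 13 (22.4%, beside 32.0%), and the groups overlapped in 25. The median log2 fold change (Kdm3b+/- minus WT, on the log2(TPM + 1) scale) was 0.03 over the tested members and -0.07 over all tested genes. The split of the 9 members at an unadjusted p under 0.05 changed with the scaling. It was 5 higher and 3 lower with FPKM, 5 and 2 with median-ratio scaling, and 3 and 2 with quantile normalization. After a correction for transcript length and GC content it was 8 and 1. The shares of all tested genes below that p were 16.2%, 16.5%, 15.7% and 14.6%, in the same order. Without WT mouse 1 there were 16 such members, beside 25.5% of all tested genes, and without Kdm3b+/- mouse 2 there were 4, beside 14.1%. The members lower without overlap numbered 24 in either case, where only 1 library of a genotype had to lie apart from 2 of the other. No matching share of all tested genes is given, so this count is not a result about the members.

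**Figure D1:**
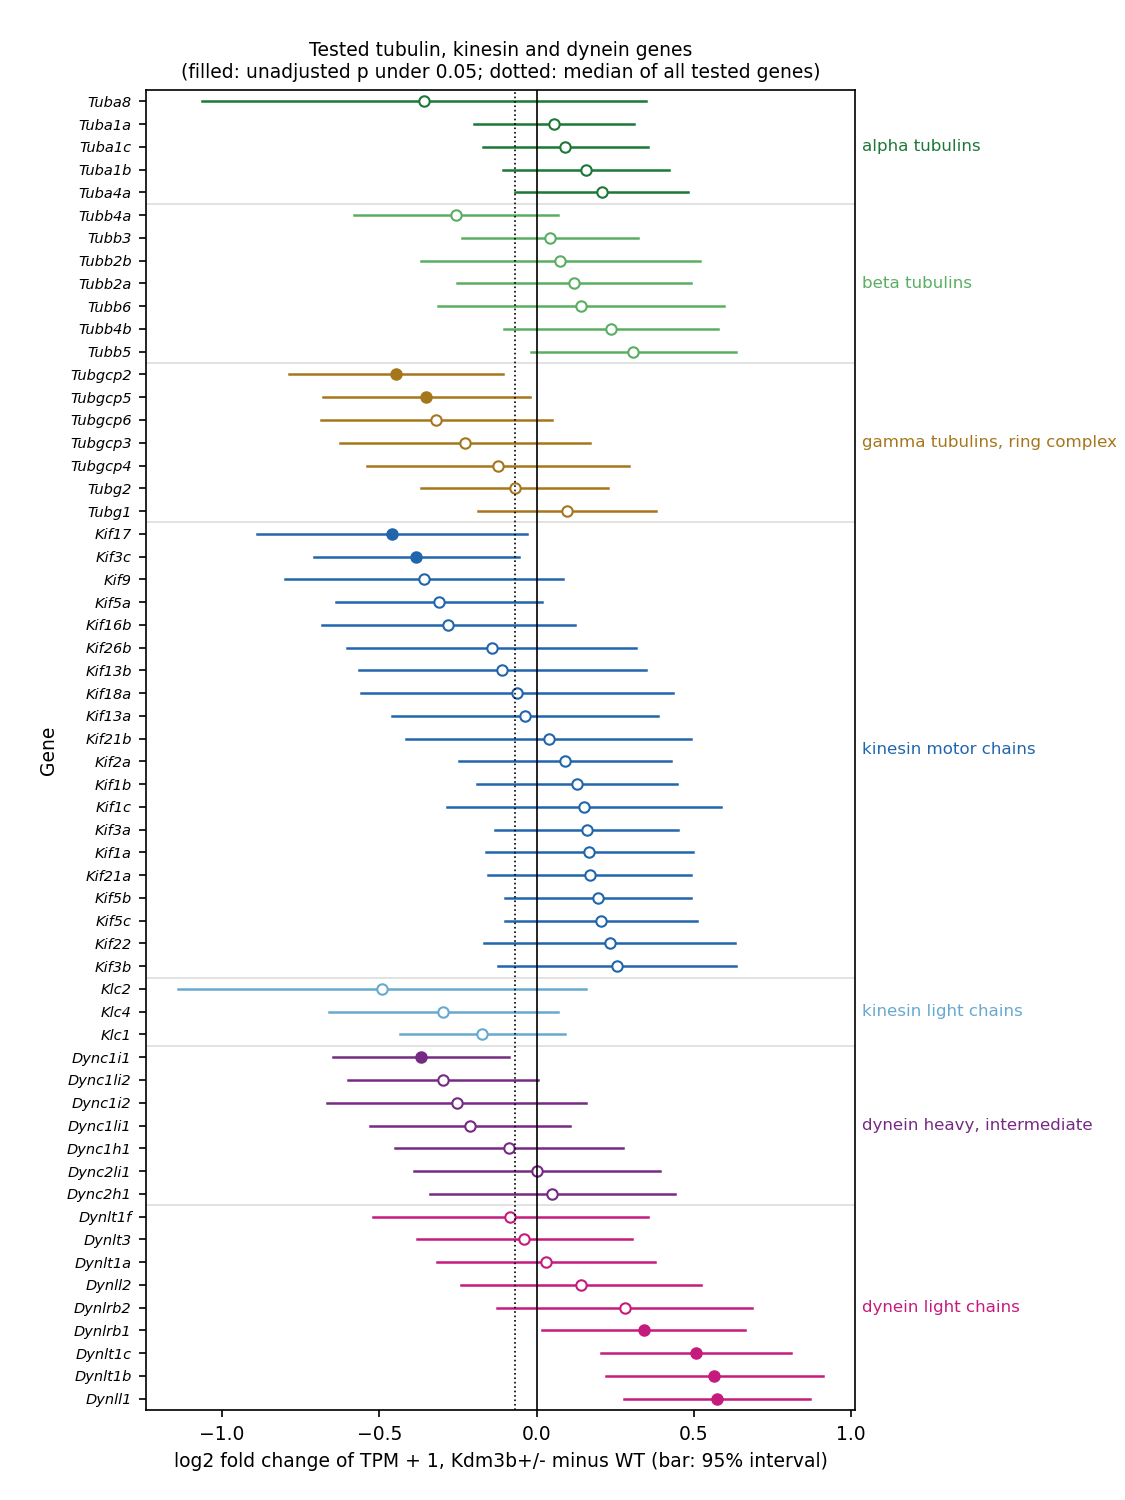
Log2 fold change (Kdm3b+/- minus WT, on the log2(TPM + 1) scale) of the 58 tested members, 1 row per gene, grouped by role; each bar is the 95% confidence interval from limma, a filled point has an unadjusted p under 0.05, and the dotted line is the median of all tested genes, -0.07. Dynll1, Dynlt1b and Dynlt1c lie farthest to the right, between 0.51 and 0.57, and the intervals of most members span 0.

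Among the role groups, the light chains of dynein had the most members below an unadjusted p of 0.05 before any correction for length. Of 9 light chains, 4 were higher at an unadjusted p under 0.05 (44.4%, beside 5.47% of all tested genes) and 0 were lower, 5 were higher without overlap (55.6%, beside 19.2%), and the median log2 fold change was 0.28. Dynlt1b and Dynlt1c, both among the 4, differ at 1 of 342 coding bases and are not separate observations. After the correction for length and GC content, only Dynll1 and Dynlt1c of the light chains stayed below that p. The other members below it were then Kif3a, Kif3b, Kif5b, Kif5c, Tuba4a and Tubb5, all higher, and Kif3c, which was lower. The summed level of the 9 dynein light chains was 1259 and 1088 TPM in WT and 1517 and 1436 TPM in Kdm3b+/- mice, a ratio of 1.26. The study lists Dynll1, Dynlt1b and Dynlt1c as DEX genes by DESeq2, a different test from the limma fit used for the calls here. As that list was chosen on these same libraries, it is not independent evidence of their direction.

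Dynll1 encodes the light chain LC8, a small dimer that binds dynein intermediate chains and many proteins outside dynein. It lies on the reverse strand at chr5:115297110-115300990 in the deposited tables. Its level was 143 and 143 TPM in WT and 228 and 199 TPM in Kdm3b+/- mice. The WT values were nearly equal and both Kdm3b+/- values were above them. The log2 fold change was 0.57 (SE 0.13, 95% confidence interval 0.28 to 0.87), with an unadjusted p of 0.00173 and a limma adjusted p of 0.116. Its paralog Dynll2, which encodes the second LC8 chain, was listed at 82.0 and 59.8 TPM in WT and at 79.7 and 75.1 TPM in Kdm3b+/- mice, and the groups overlapped (log2 fold change 0.14, 95% confidence interval -0.24 to 0.52). Dynll1 made up 63.5% and 70.4% of the summed Dynll level in WT and 74.1% and 72.6% in Kdm3b+/- mice.

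The coding sequences of Dynll1 and Dynll2 differ at 51 of 270 bases, so reads of the pair can mostly be told apart, whereas 8.60% of the windows of 50 coding bases of Dynll1 also occur in other genes. Coding bases 1 to 90 of both genes, from the GENCODE annotation of GRCm38, show this, and capitals in Dynll2 mark the 18 bases that differ from Dynll1.
Dynll1: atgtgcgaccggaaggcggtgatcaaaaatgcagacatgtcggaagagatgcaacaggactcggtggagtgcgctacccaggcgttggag
Dynll2: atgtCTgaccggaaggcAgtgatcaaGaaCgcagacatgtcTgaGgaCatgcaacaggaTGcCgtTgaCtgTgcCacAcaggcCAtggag

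The Dynlt1 genes encode the light chain Tctex-1 and lie in a cluster of near-identical copies on chromosome 17. Dynlt1b, at chr17:6430112-6436295, was listed at 94.7 and 99.96 TPM in WT and at 127 and 164 TPM in Kdm3b+/- mice. Dynlt1c, at chr17:6601779-6607891, was listed at 108 and 109 TPM in WT and at 143 and 165 TPM in Kdm3b+/- mice. In both genes the WT values were close together and the Kdm3b+/- values were above them and farther apart. The log2 fold change was 0.56 for Dynlt1b (SE 0.15, limma adjusted p = 0.157) and 0.51 for Dynlt1c (SE 0.13, limma adjusted p = 0.153). The value of Dynlt1b was 0.39 without Kdm3b+/- mouse 2, and 0.31 after a correction for transcript length and GC content (unadjusted p = 0.105).

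The other copies did not differ in this way. Dynlt1a was listed at 22.1 and 26.4 TPM in WT and at 24.7 and 24.7 TPM in Kdm3b+/- mice, and Dynlt1f at 9.02 and 13.0 TPM and at 10.7 and 9.68 TPM. Both overlapped between the groups (log2 fold changes 0.03 and -0.08, the second of them 0.03 with quantile normalization). Dynlt1c and Dynlt1f are also listed at the same pair of places, 1 on each strand. At each place both genes lie on the same strand, where they share 6113 and 6885 bases, so how reads were split between them is uncertain.

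Each 50-base coding window of Dynlt1a, Dynlt1c and Dynlt1f occurs in another gene, and so do 92.8% of those of Dynlt1b. Coding bases 1 to 90 of Dynlt1b and Dynlt1c are shown because the capital marks the 1 base, of 342 coding bases, at which Dynlt1b and Dynlt1c differ; Dynlt1a and Dynlt1f read as Dynlt1c here.
Dynlt1b: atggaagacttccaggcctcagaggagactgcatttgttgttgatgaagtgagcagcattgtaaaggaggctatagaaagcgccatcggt
Dynlt1c: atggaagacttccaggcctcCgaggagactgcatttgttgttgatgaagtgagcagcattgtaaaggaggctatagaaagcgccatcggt
Summed over the 4 copies, the level was 233 and 248 TPM in WT and 306 and 363 TPM in Kdm3b+/- mice. The groups did not overlap, and the log2 fold change of the sum was 0.47 (SE 0.13, 95% confidence interval 0.17 to 0.77, limma adjusted p = 0.170). The sum still depends on how reads were divided, since TPM is scaled to length, the longest transcripts of the copies range from 771 to 3321 bases, and Dynlt1-ps1, which shares 92.8% to 100% of these windows, is not in it. Dynlt3, a more distant relative that is distinct in sequence, was listed at 219 and 168 TPM in WT and at 192 and 182 TPM in Kdm3b+/- mice, with both Kdm3b+/- values between the WT values. It made up 48.4% and 40.5% of the summed Dynlt level in WT and 38.5% and 33.4% in Kdm3b+/- mice.

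Dynlrb1, a light chain of the roadblock family, was the most abundant dynein gene. Its level was 578 and 466 TPM in WT and 707 and 612 TPM in Kdm3b+/- mice, without overlap but with a wide spread inside each genotype. The log2 fold change was 0.34 (SE 0.14, limma adjusted p = 0.272), 0.19 without WT mouse 2, and 0.10 after the correction for length and GC content. Dynlrb2, its paralog in ciliated cells, was listed at 3.70 and 3.01 TPM in WT and at 4.30 and 4.26 TPM in Kdm3b+/- mice (log2 fold change 0.28, limma adjusted p = 0.447, and -0.02 after the same correction). Of the ciliated cell markers, 3 of 8 tested were higher at an unadjusted p under 0.05, as Ccdc153 (log2 fold change 0.58), whereas the untested Foxj1 was lower without overlap, at 1.10 and 1.28 TPM in WT and 0.471 and 0.517 TPM in Kdm3b+/- mice; their part in the value of Dynlrb2 was not tested.

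The regions around the start sites of Dynll1 and Dynlt1c are printed because both genes were higher without overlap in Kdm3b+/- mice, although neither passed the adjusted threshold; whether they are controlled together was not tested. Both are from RefSeq, GRCm38, and run from 250 bases before the start of the gene to 50 after it, 5′ to 3′ on the strand of the gene. Capitals mark GGGCGG, the core of the GC box, and CCAAT, or their reverse complements. Dynll1 is shown from chr5:115300941-115301240 on the reverse strand and has 34 CpG sites and a GC content of 71.0%, and Dynlt1c from chr17:6601529-6601828 on the forward strand, with 21 CpG sites and 63.0%.
Dynll1: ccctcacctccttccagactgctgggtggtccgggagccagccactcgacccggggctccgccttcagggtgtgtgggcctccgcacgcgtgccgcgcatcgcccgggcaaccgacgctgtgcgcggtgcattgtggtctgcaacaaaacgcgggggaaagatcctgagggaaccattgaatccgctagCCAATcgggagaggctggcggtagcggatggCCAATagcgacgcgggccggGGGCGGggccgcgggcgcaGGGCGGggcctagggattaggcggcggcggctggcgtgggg
Dynlt1c: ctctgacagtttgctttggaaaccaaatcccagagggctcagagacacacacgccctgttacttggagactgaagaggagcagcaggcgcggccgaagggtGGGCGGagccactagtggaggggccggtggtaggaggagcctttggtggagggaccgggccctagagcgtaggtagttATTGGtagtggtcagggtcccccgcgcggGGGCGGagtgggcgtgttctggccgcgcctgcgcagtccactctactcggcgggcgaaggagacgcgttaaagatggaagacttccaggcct
On either strand, GGGCGG was present in 35.7% and CCAAT in 37.4% of 32851 such windows of all genes. A window was matched for 44 of the 58 tested members. GGGCGG was found in 32 of them and CCAAT in 15. TATAAA was found in 4 members and TGACGTCA in 5, beside 13.6% and 1.8% of all windows, and neither was found in the windows of Dynll1 and Dynlt1c. Members are counted as genes with the motif in any of their windows, and some have several windows. The percentages count single windows, so they are not a like measure.

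The larger subunits of cytoplasmic dynein had a lower median estimate than the light chains. Single genes did not all follow that order, as Dync2h1 (0.05) lay above the light chains Dynlt3 (-0.04) and Dynlt1f (-0.08). Of 7 genes, 1 was lower at an unadjusted p under 0.05 (14.3%, beside 11.5% of all tested genes) and 0 were higher, 3 were lower without overlap (42.9%, beside 32.0%), and the median log2 fold change was -0.21 (-0.04 without Kdm3b+/- mouse 1 and -0.32 without WT mouse 1). Dync1i1, the intermediate chain that is mainly neuronal, was listed at 207 and 197 TPM in WT and at 159 and 154 TPM in Kdm3b+/- mice. The 2 mice of each genotype were close to each other and the groups were apart. Its log2 fold change was -0.37 (SE 0.12, 95% confidence interval -0.65 to -0.09, limma adjusted p = 0.213), and -0.19 after the correction for length and GC content. Dync1i2, the intermediate chain of most tissues, was listed at 22.5 and 25.5 TPM in WT and at 17.0 and 23.4 TPM in Kdm3b+/- mice, with overlap. The summed level of the pair was 229 and 223 TPM in WT and 176 and 178 TPM in Kdm3b+/- mice, a ratio of 0.782.

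The light intermediate chains, which link the motor to cargo adaptors, were also lower in both Kdm3b+/- mice. Dync1li1 was listed at 93.6 and 109 TPM in WT and at 83.8 and 90.4 TPM in Kdm3b+/- mice, and Dync1li2 at 112 and 125 TPM and at 93.3 and 98.8 TPM. Neither passed the test (log2 fold changes -0.21 and -0.30, limma adjusted p = 0.460 and 0.297). The heavy chain Dync1h1, the motor itself, was listed at 28.7 and 32.4 TPM in WT and at 25.8 and 31.7 TPM in Kdm3b+/- mice. The groups overlapped, and the estimate was -0.09 (95% confidence interval -0.45 to 0.27) and 0.03 with quantile normalization. Of dynein-2, the motor of retrograde transport inside cilia, Dync2h1 was listed at 4.601 and 5.21 TPM in WT and at 5.40 and 4.82 TPM in Kdm3b+/- mice, and Dync2li1 at 25.8 and 21.5 TPM and at 20.8 and 26.6 TPM; both overlapped.

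Within a library, a ratio of 2 genes does not depend on the scaling of that library. Dynll1 had 0.691 and 0.723 TPM per TPM of Dync1i1 in WT and 1.44 and 1.29 in Kdm3b+/- mice. The light chain was thus below its intermediate chain in both WT mice and above it in both Kdm3b+/- mice. This ratio was chosen after the values of the pair were seen and was not tested.

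**Figure D2:**
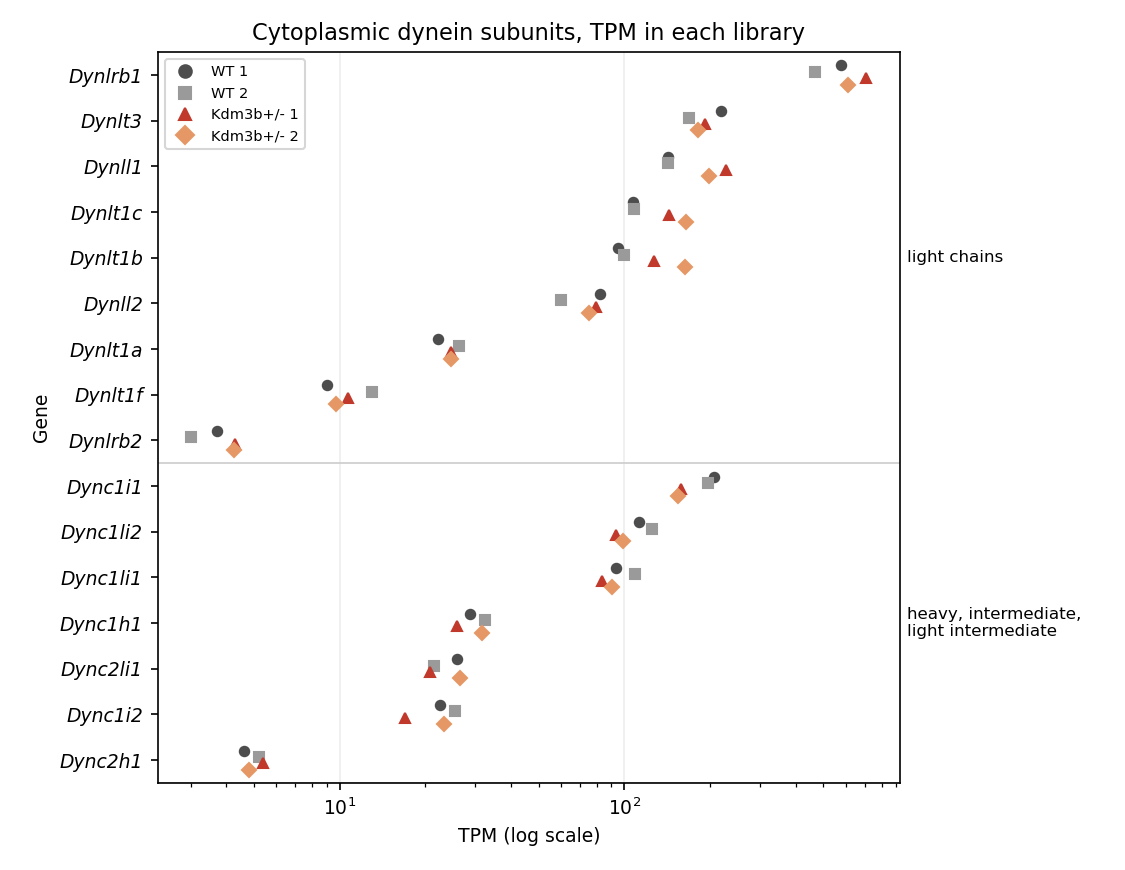
TPM (log axis) of each of the 16 dynein genes in each library, with 1 symbol per mouse and genes in order of level within the light chains and the larger subunits. The Kdm3b+/- symbols of Dynll1, Dynlt1b, Dynlt1c and Dynlrb1 lie to the right of both WT symbols, and those of Dync1i1, Dync1li1 and Dync1li2 lie to the left.

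Tubulins were the most abundant members. The 17 alpha and beta tubulins summed to 9467 and 9779 TPM in WT and to 8993 and 10554 TPM in Kdm3b+/- mice, and these ranges overlapped. Of 12 tested, 0 passed an unadjusted p of 0.05 in either direction, beside 5.47% of all tested genes higher and 11.5% lower. Without overlap, 4 were higher (33.3%, beside 19.2% of all tested genes) and 0 lower (beside 32.0%). The median log2 fold change was 0.10 (-0.01 without Kdm3b+/- mouse 2).

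Among the alpha tubulins, Tuba1a, the main neuronal form, was listed at 2905 and 3019.6 TPM in WT and at 2867 and 3300.2 TPM in Kdm3b+/- mice. The groups overlapped, and the estimate of 0.05 (95% confidence interval -0.20 to 0.31) became -0.09 with quantile normalization. Tuba1b was listed at 1334 and 1277 TPM in WT and at 1363 and 1554 TPM in Kdm3b+/- mice, and Tuba1c at 402 and 403 TPM and at 421 and 437 TPM. Both were higher without overlap, with log2 fold changes of 0.16 and 0.09. Tuba1a, Tuba1b and Tuba1c share between 90.4% and 95.6% of their 50-base coding windows with each other or with pseudogenes, so that values for single copies are uncertain; their sum gave a log2 fold change of 0.09 (95% confidence interval -0.16 to 0.33).

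Tuba4a, an alpha tubulin that is encoded without the terminal tyrosine of most others, was listed at 882 and 858 TPM in WT and at 928 and 1085 TPM in Kdm3b+/- mice. It was higher without overlap (log2 fold change 0.21, SE 0.12, limma adjusted p = 0.410), and the estimate was 0.39 after the correction for length and GC content, with an unadjusted p of 0.00454. It overlaps Stk16 on the other strand, and the strand setting of the libraries is not given in the sources used here. Tuba8 was listed at 53.1 and 26.5 TPM in WT and at 37.2 and 22.7 TPM in Kdm3b+/- mice, a spread within each genotype that exceeded the difference between them.

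The beta tubulins were led by Tubb4a, the isotype of mature neurons and of myelinating oligodendrocytes. It was listed at 2430.3 and 2957 TPM in WT and at 2006 and 2508 TPM in Kdm3b+/- mice. The higher Kdm3b+/- value lay between the WT values, and the log2 fold change of -0.26 (SE 0.14, limma adjusted p = 0.387) did not pass the test. Tubb4b, which is made in most tissues and in cilia, was listed at 472 and 404 TPM in WT and at 455 and 581 TPM in Kdm3b+/- mice, with overlap (0.24 on the log2 scale). Tubb5, a form that is widely made, in dividing cells as well, was listed at 159 and 163 TPM in WT and at 179 and 224 TPM in Kdm3b+/- mice. It was higher without overlap (log2 fold change 0.31, SE 0.14, limma adjusted p = 0.313, and 0.46 after the correction for length and GC content).

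The remaining beta tubulins varied as much within a genotype as between genotypes. The neuronal Tubb3 was listed at 354 and 323 TPM in WT and at 335 and 363 TPM in Kdm3b+/- mice. Tubb2a was at 351 and 262 TPM and at 301 and 360.1 TPM, and its near copy Tubb2b at 120.3 and 79.2 TPM and at 95.4 and 111 TPM. All of them overlapped, and the sum of Tubb2a and Tubb2b, which differ at 47 of 1338 coding bases, gave a log2 fold change of 0.11 (95% confidence interval -0.27 to 0.49). Tubb6, a minor form, stayed between 4.94 and 7.39 TPM.

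Isotypes of beta tubulin differ most in the acidic tail that projects from the microtubule and carries many of its modifications. Tubb4a, Tubb4b and Tubb5 are shown because their shares of beta tubulin did not overlap between the groups, which among the other isotypes was so only for the minor Tubb6. Their last 60 coding bases, aligned at the stop codon, have capitals at bases that differ from Tubb4a (13 in Tubb4b and 18 in Tubb5).
Tubb4a: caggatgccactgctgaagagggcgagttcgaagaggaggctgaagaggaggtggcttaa
Tubb4b: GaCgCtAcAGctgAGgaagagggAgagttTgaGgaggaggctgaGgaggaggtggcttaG
Tubb5: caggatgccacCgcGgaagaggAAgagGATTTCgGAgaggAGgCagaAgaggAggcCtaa
Tubb4a made up 62.5% and 70.5% of the summed beta tubulin level in WT and 59.4% and 60.4% in Kdm3b+/- mice. Tubb4b made up 12.1% and 9.63% in WT and 13.5% and 14.0% in Kdm3b+/- mice, and Tubb5 4.10% and 3.89% and 5.30% and 5.38%. The share of Tubb4a was thus lower in both Kdm3b+/- mice than in both WT mice, but the WT mice lay farther from each other than from Kdm3b+/- mice in the case of WT mouse 1. Of the windows of 50 coding bases of Tubb4b, 61.1% also occur in pseudogenes. Summed alpha tubulin was 1.43 and 1.33 times summed beta tubulin in WT and 1.66 and 1.54 times in Kdm3b+/- mice. With 2 mice in each group, no permutation of such shares or ratios can give an exact p below 0.3333.

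**Figure D3:**
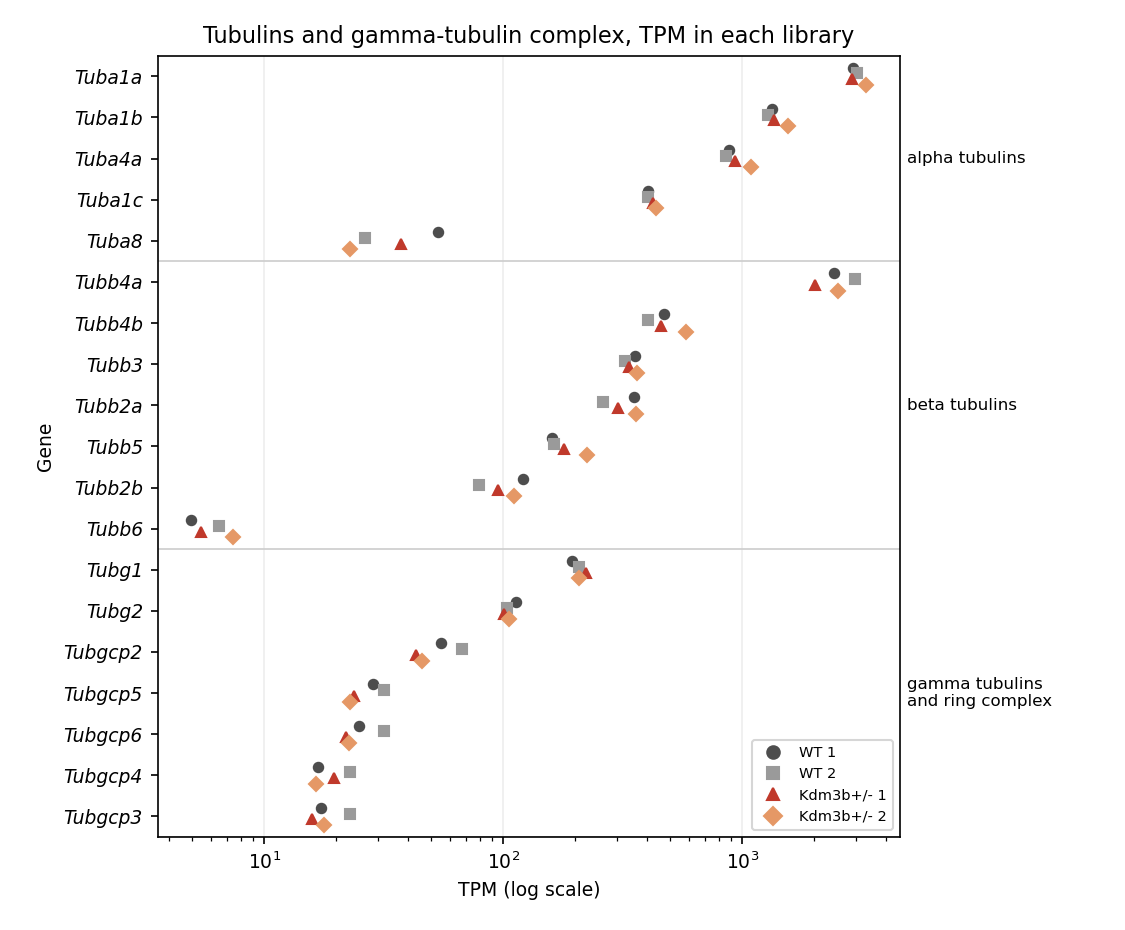
TPM (log axis) of each tested alpha tubulin, beta tubulin and gamma tubulin complex gene in each library, with 1 symbol per mouse. Tuba1a and Tubb4a are at 2006 TPM or more in each library, and the Kdm3b+/- symbols of Tubgcp2, Tubgcp5 and Tubgcp6 lie to the left of both WT symbols.

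Gamma tubulin and its ring complex nucleate microtubules. Of 7 genes, 2 were lower at an unadjusted p under 0.05 (28.6%, beside 11.5% of all tested genes) and 0 were higher, 3 were lower (42.9%, beside 32.0%) and 1 higher without overlap, and the median log2 fold change was -0.23 (-0.04 after the correction for length and GC content). Tubgcp2, a core protein of the small complex that holds gamma tubulin, was listed at 55.0 and 66.9 TPM in WT and at 43.0 and 45.6 TPM in Kdm3b+/- mice. Both Kdm3b+/- values were below both WT values, and the log2 fold change was -0.45 (SE 0.15, limma adjusted p = 0.213), and -0.21 after the correction. Tubgcp5, a protein of the larger ring, was listed at 28.6 and 31.5 TPM in WT and at 23.8 and 22.9 TPM in Kdm3b+/- mice (log2 fold change -0.35, SE 0.15, limma adjusted p = 0.270). Tubgcp6, of the same ring, was at 25.0 and 31.5 TPM and at 22.0 and 22.7 TPM (log2 fold change -0.32, limma adjusted p = 0.348).

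The other genes of the complex overlapped or were barely apart. Tubgcp3 was listed at 17.2 and 22.8 TPM in WT and at 15.8 and 17.8 TPM in Kdm3b+/- mice, and Tubgcp4 at 16.8 and 22.8 TPM and at 19.5 and 16.4 TPM. Gamma tubulin itself, Tubg1, was listed at 194 and 206.3 TPM in WT and at 223 and 206.4 TPM in Kdm3b+/- mice, higher without overlap by a margin of less than 1 TPM. Its copy Tubg2 was at 113 and 104 TPM and at 101 and 105 TPM, with overlap. Tubgcp2, Tubgcp4 and Tubgcp6 each overlap a gene on the other strand.

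Kinesin-1, the main motor of axonal transport, is built of motor chains from Kif5a, Kif5b or Kif5c and of light chains that bind cargo. Kif5a, the neuronal chain that carries neurofilaments among other cargo, was listed at 83.8 and 96.8 TPM in WT and at 67.9 and 77.3 TPM in Kdm3b+/- mice. It was lower without overlap, and the difference did not pass the test (log2 fold change -0.31, SE 0.15, limma adjusted p = 0.314), with -0.16 left after the correction for length and GC content. Kif5b, the chain of most tissues, was listed at 105 and 114 TPM in WT and at 129.7 and 121 TPM in Kdm3b+/- mice. Kif5c, also neuronal, was at 149 and 159.5 TPM and at 192 and 165 TPM. Both of these were higher without overlap, each with a log2 fold change of 0.20 (limma adjusted p = 0.465 and 0.461), and their unadjusted p was 0.0302 and 0.0408 after the correction for length and GC content. The 3 chains together were close between the groups, at 338 and 370.1 TPM in WT and 390 and 364 TPM in Kdm3b+/- mice. Kif5a made up 24.7% and 26.2% of that sum in WT and 17.4% and 21.3% in Kdm3b+/- mice.

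Of the 3 tested light chains of kinesin-1, 0 passed an unadjusted p of 0.05, beside 5.47% of all tested genes higher and 11.5% lower. Without overlap, 2 of the 3 were lower, beside 32.0% of all tested genes. Klc1, the neuronal light chain and the most abundant kinesin gene, was listed at 778 and 859 TPM in WT and at 725 and 727 TPM in Kdm3b+/- mice. It was lower without overlap by a small margin (log2 fold change -0.17, SE 0.12, limma adjusted p = 0.466), and the estimate was 0.02 after the correction for length and GC content. Klc4 was listed at 54.7 and 68.7 TPM in WT and at 46.3 and 53.4 TPM in Kdm3b+/- mice (log2 fold change -0.30, limma adjusted p = 0.374). Klc2 was at 12.1 and 13.9 TPM in WT and at 5.99 and 13.1 TPM in Kdm3b+/- mice. Kdm3b+/- mouse 1 alone was low for Klc2: the log2 fold change was -0.49 with all libraries, 0.02 without Kdm3b+/- mouse 1, and -0.999 with a limma adjusted p of 0.0414 without Kdm3b+/- mouse 2, the only setting with a library left out in which any member was a DEX gene. Klc3 was below 1 TPM in each library. The summed light chains amounted to 2.50 and 2.55 times the summed Kif5 level in WT and to 1.99 and 2.18 times in Kdm3b+/- mice.

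Kinesin-2 moves cargo in axons and in cilia. Kif3c, a neuronal partner of Kif3a, was listed at 28.2 and 29.9 TPM in WT and at 21.4 and 22.7 TPM in Kdm3b+/- mice. The mice of a genotype were close together and the groups apart (log2 fold change -0.38, SE 0.14, limma adjusted p = 0.246), and -0.26 was left after the correction for length and GC content. Kif17, a dendritic motor of glutamate receptor cargo, was listed at 3.22 and 2.65 TPM in WT and at 2.01 and 1.71 TPM in Kdm3b+/- mice (log2 fold change -0.46, SE 0.19, limma adjusted p = 0.269, and -0.17 after the correction). Kif3a was listed at 93.5 and 95.6 TPM in WT and at 108 and 103 TPM in Kdm3b+/- mice, and Kif3b, its usual partner, at 7.43 and 6.54 TPM and at 8.001 and 9.08 TPM. Kif3a and Kif3b were thus higher, and Kif3c and Kif17 lower, each without overlap; the log2 fold changes of Kif3a and Kif3b were 0.16 and 0.26, and 0.30 and 0.40 after the correction, with an unadjusted p of 0.0180 and 0.0336.

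Kinesin-3 motors carry vesicles. Kif1a, the carrier of synaptic vesicle precursors, was listed at 91.7 and 93.6 TPM in WT and at 94.0 and 116 TPM in Kdm3b+/- mice. Kif1b was at 82.8 and 98.0 TPM and at 98.3 and 98.9 TPM, and Kif1c at 1.71 and 2.27 TPM and at 2.29 and 2.33 TPM. The 3 genes were higher without overlap, in each case by a margin smaller than the distance between the WT mice, and their log2 fold changes lay between 0.13 and 0.17. Kif16b, a motor of early endosomes, was listed at 3.26 and 3.50 TPM in WT and at 2.51 and 2.71 TPM in Kdm3b+/- mice (log2 fold change -0.28, limma adjusted p = 0.441).

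Of the other kinesins, Kif21a, which slows microtubule growth, was listed at 36.2 and 39.2 TPM in WT and at 44.6 and 40.4 TPM in Kdm3b+/- mice. Kif2a, which disassembles microtubule ends, was at 14.2 and 14.6 TPM and at 15.3 and 15.4 TPM, and the chromosome-bound Kif22 at 3.16 and 3.11 TPM and at 3.62 and 4.12 TPM. All were higher without overlap, with log2 fold changes between 0.09 and 0.23. Kif9, a motor of motile cilia, was listed at 1.41 and 1.49 TPM in WT and at 0.822 and 1.009 TPM in Kdm3b+/- mice, lower without overlap (log2 fold change -0.36, limma adjusted p = 0.378), as Foxj1 was among the ciliated cell markers, of which 3 others were higher at an unadjusted p under 0.05. Over all 20 tested motor chains, 0 were higher and 2 lower at an unadjusted p under 0.05, beside 11.5% of all tested genes lower, 10 of 20 were higher (beside 19.2%) and 5 lower (beside 32.0%) without overlap, and the median log2 fold change was 0.06.

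Many members below the threshold are kinesins of cell division, although Kif18a and Kif22 of that class were tested. Kif11, Kif14, Kif18b, Kif23, Kif2c and Kif4, which work in the spindle or in the cleavage of dividing cells, each stayed at or below 0.251 TPM. The untested Kif15 (0.353 to 0.534 TPM) and Kif20b (0.383 to 0.934 TPM) were listed above that level in each library. Of the 24 members, 5 were listed at 0 in each library, namely Tuba3a, Tuba3b, Kif2b, Kif4-ps and Kif16bos, and 7 were at 0 in some libraries. The highest mean among them was 0.956 TPM, that of Kif6, which was listed at 1.38 and 0.710 TPM in WT and at 0.672 and 1.07 TPM in Kdm3b+/- mice. With no filter on low TPM, 77 members were tested and 10 had an unadjusted p under 0.05, beside 12.6% of all genes tested in that setting. Of the 10, 3 were higher and 7 lower, and none was a DEX gene.

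**Figure D4:**
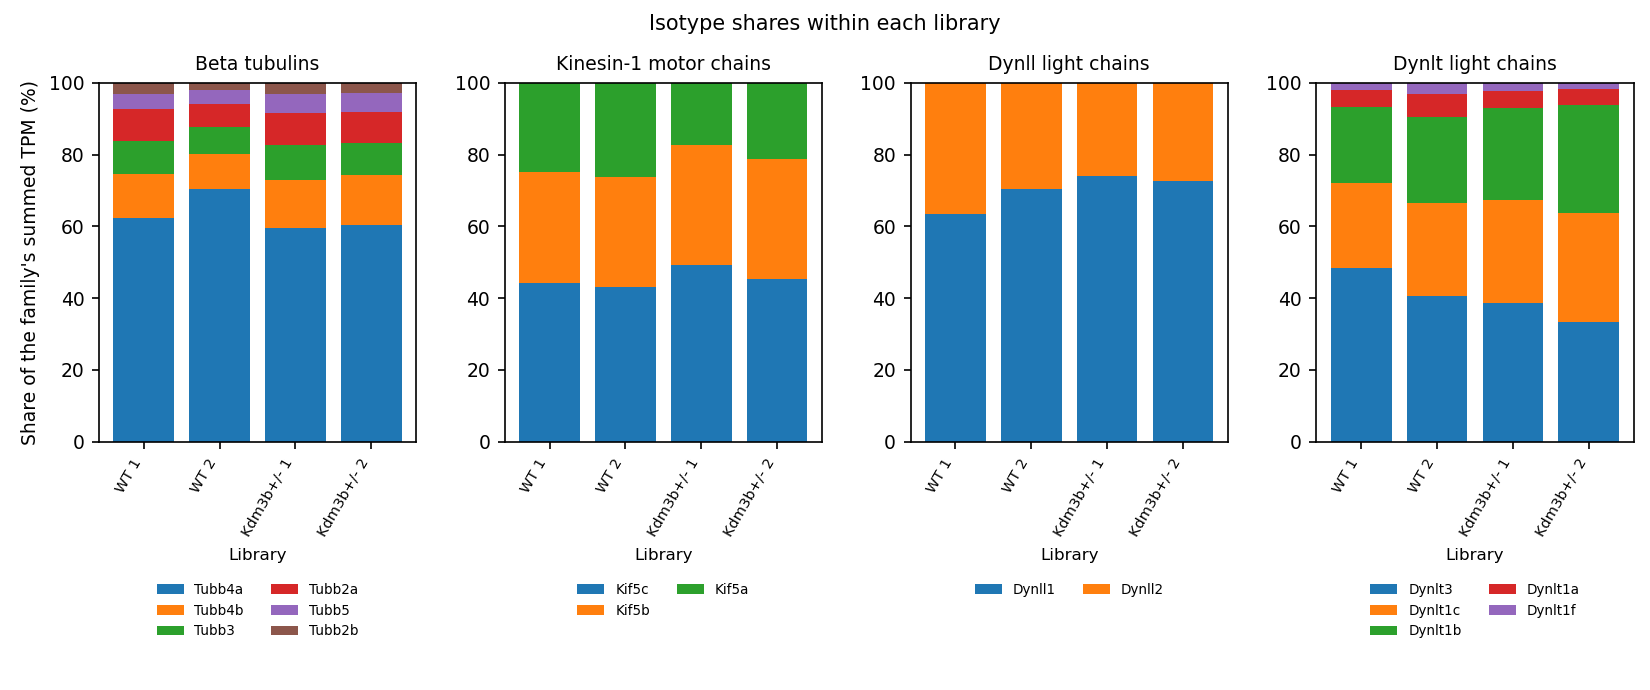
Share of each isotype in the summed TPM of its family (percent, stacked bars from 0) in each of the 4 libraries, for beta tubulins, kinesin-1 motor chains, Dynll light chains and Dynlt light chains; isotypes with a mean WT share under 0.5% are not drawn. The bars of Tubb4a and Kif5a are shorter, and those of Dynll1, Dynlt1b and Dynlt1c taller, in both Kdm3b+/- mice than in both WT mice.

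Fold changes of all genes varied with transcript length, and members follow roles that differ in length. Over all tested genes, split into 5 equal bins of length, the median log2 fold change was 0.14 in the bin of the shortest transcripts, up to 1747 bases, -0.06, -0.18 and -0.19 in the next ones and -0.06 in that of the longest. The members of these bins had medians of 0.20 (8 genes), 0.05 (18), -0.21 (10), -0.26 (4) and 0.04 (18). Short transcripts were thus higher in Kdm3b+/- mice as a whole, and those of Dynlrb1 (788 bases), Dynlt1b (771) and Dynlrb2 (527) are among the shortest. Dynlt1f has the same length as Dynlt1b, and its log2 fold change was -0.08, and -0.34 after a correction for length and GC content. All coding windows of Dynlt1f also occur in other copies, and it overlaps Dynlt1c on the same strand. How reads were split between the copies is uncertain, so Dynlt1f cannot serve as a control for length. The part of length in the value of Dynlt1b was not tested. The longest Dynll1 and Dynlt1c transcripts have 2030 and 2589 bases. After a correction of each library for length and GC content, Dynll1 was at 0.59 and Dynlt1c at 0.62 (limma adjusted p = 0.0862 and 0.0645), Dynlt1b at 0.31 and Dynlrb1 at 0.10. The correction took the longest annotated transcript, 771 bases for Dynlt1b and 2589 for Dynlt1c, although the coding sequences of these copies differ at 1 of 342 bases. The values of both copies after it thus depend on the annotation, and their sum was not corrected. Of the 5 members lower at an unadjusted p under 0.05, Kif3c stayed under that threshold with the correction, at 0.0484, and Tubgcp5 was at 0.0536, Tubgcp2 at 0.0781, Dync1i1 at 0.121 and Kif17 at 0.475. Whether length itself had a part in these differences was not tested.

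**Figure D5:**
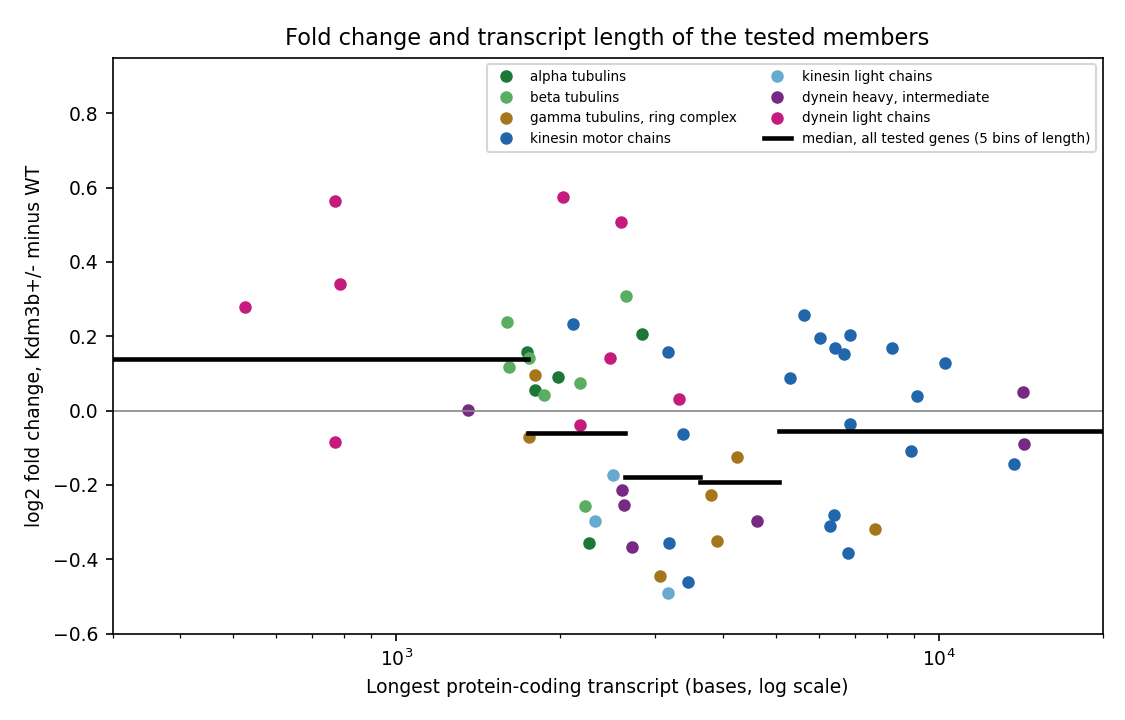
Log2 fold change (Kdm3b+/- minus WT) of the 58 tested members against the length of their longest protein-coding transcript (bases, log axis), colored by role; black bars are the median of all tested genes in each of 5 equal bins of length, 0.14 for the shortest transcripts and -0.19 at the lowest. Dynll1 and Dynlt1c lie at lengths of 2030 and 2589 bases, above the bars, and Dynlt1b and Dynlrb1 lie at 771 and 788 bases.

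Other genes of the pathway, from lists written for this comparison, held 0 DEX genes. Their counts stand beside 5.47% of all tested genes higher and 11.5% lower at an unadjusted p under 0.05. Of 12 dynactin genes, which form the activator of dynein, 0 were higher and 3 lower (25.0%) at that threshold, led by Dctn1 (127 and 177 TPM in WT, 90.9 and 121 TPM in Kdm3b+/- mice, log2 fold change -0.52) and Actr1a (log2 fold change -0.51). Of 11 tested regulators and adaptors of dynein, 1 was lower (9.09%) and 0 were higher, and the lowest p were those of Nde1 (-0.47) and Bicdl1 (-0.45). Of 13 kinesin partners 3 were lower (23.1%) and 0 higher, among them the cargo adaptors Mapk8ip2 (-0.57) and Clstn1 (-0.55). Of the 4 kinesin motors of the Kifc family 1 was lower, Kifc2 (-0.50), and Kifc1 had an estimate of -0.38.

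Tubulin folding was the list with the most members higher. Of 20 genes that fold tubulin or its pairs, 6 were higher (30.0%, beside 5.47% of all tested genes) and 1 lower (beside 11.5%) at an unadjusted p under 0.05, with a median log2 fold change of 0.08. The longest transcripts of the 6 have 1062 to 1735 bases. They thus lie in the bin of the shortest transcripts, where the median of all tested genes was 0.14. Tbcd, the lower one, has 3906 bases. The shares of all tested genes are not matched for length, and the part of length was not tested. Tbcc, a cofactor that completes the tubulin pair, was listed at 59.7 and 56.5 TPM in WT and at 93.1 and 82.4 TPM in Kdm3b+/- mice (log2 fold change 0.58, limma adjusted p = 0.127), and Pfdn2, a subunit of the chaperone prefoldin, had 0.35. Of 20 tested microtubule-associated proteins 3 were lower (15.0%, beside 11.5%) and 0 higher, with the end-binding proteins Mapre3 (-0.47) and Mapre2 (-0.40) in front. Of 9 tested stathmins and severing enzymes 2 were higher and 2 lower, with Stmn1 at 0.34 and Katnal1 at -0.40. Of 15 tested enzymes that modify tubulin 2 were higher and 1 lower, and the largest estimate was that of Vash1, which removes the terminal tyrosine of alpha tubulin, at 5.03 and 5.61 TPM in WT and 8.78 and 9.71 TPM in Kdm3b+/- mice (log2 fold change 0.70, limma adjusted p = 0.127). The tubulins Tubd1 and Tube1 of the centriole were at -0.22 and -0.34, and neither passed an unadjusted p of 0.05.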

How the data were processed

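The authors trimmed the reads of each mouse, aligned them with STAR and estimated gene abundance with StringTie; tool versions, genome build and annotation are not given in the sources used here. Per identifier, the authors deposited a coverage, an FPKM and a TPM value; coverage is the mean read depth over exons and was used for depth only, FPKM was scaled by the authors to length and mapped fragments, and TPM to length and a fixed library total. Neither is a count, so no count test was run. Symbols were found for 24462 of 24532 identifiers, and of these 99.5% lay on the chromosome that RefSeq gives for GRCm38. Rows that share an identifier were summed. One further gene of these families was not used here.

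Genes that averaged at least 1 TPM were tested on log2(TPM + 1) with limma version 3.58.1 (eBayes with trend, R version 4.3.3), genotype alone in the fit, and Benjamini-Hochberg adjustment over 13652 genes; the test was checked on simulated data. Transcript length, GC content and coding sequence came from the GENCODE annotation of GRCm38, and 12904 tested genes had the first of these. Tables and figures used Python version 3.11.15, pandas version 2.3.3, NumPy version 2.4.6 and Matplotlib version 3.10.9, and robust fits statmod version 1.5.0. Groups came from the genotype labels.

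Members and gene lists were chosen with earlier results of these data known. Named were Kdm3b; members that were DEX or had an unadjusted p under 0.05; the 10 members of highest mean TPM; the 5 largest increases and 5 largest decreases without overlap; the subunits of dynein-1, all light chains and all kinesin-1 chains; Dynll1, Dynlt1b and Dynlt1c, which the study lists; and in each other list the 2 genes of smallest p. Kif1a, Kif1b, Kif1c, Kif2a, Kif3a, Kif3b, Kif16b, Kif21a, Kif22, Tuba8, Tubb2b, Tubb6, Tubg1, Tubg2, Tubgcp3, Tubgcp4, Tubgcp6, Dync2h1, Dync2li1 and the untested members were named with their values in view. The alternatives were a pseudocount of 0.1, FPKM, no filter or a mean TPM of at least 5, 3 other scalings, the highest row per gene, fits without trend or robust, a replicate block, a loess correction for length and GC content alone and with that block, summed copies, 2 other thresholds, and each library left out.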

Additional observations from a re-analysis of the deposited data

How the results depend on the processing

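None of the 70 named genes other than Kdm3b lost a call, since none was a DEX gene, and 1142 of 1189 of their values under the alternatives kept the direction and the side of the threshold; 12 values crossed it and 35 values, of 17 genes, changed sign. No member was DEX under any alternative but 2: 3 were with the replicate block (Dynll1, Dynlt1b and Dynlt1c, higher), and with 1 library left out the count was 0 to 1 (Klc2, without Kdm3b+/- replicate 2). The replicate numbers are shared numbers of different mice, with a correlation of 0.121 between same-numbered libraries, and 0.0133 after the length and GC correction; the block moved the count over all genes from 63 to 600, and after that correction from 44 to 68, with 0 members DEX. That count was 38 with FPKM, 1 without a filter on low TPM, 37 without the trend, 33 with a log2 fold change over 1.2, and 21 to 188 with a library left out; the cause was not tested.

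The median log2 fold change of all tested genes was -0.010 with FPKM, -0.0062 with median-ratio scaling, 0.0053 with quantile normalization and 0.0041 after the length and GC correction, with and without the replicate block. For kinesins it was 0.11 at a minimum mean TPM of 5, 0.077 with quantile normalization and -0.16 to 0.11 with a library left out, against -0.04. For dynein subunits it was 0.074 with FPKM, 0.084 with median-ratio scaling, 0.13 with quantile normalization, -0.027 after the length and GC correction with and without the block, and 0.015 to 0.060 with a library left out, against 0.016. After that correction, with and without the block, it was 0.17 for alpha tubulins, -0.037 for the gamma tubulin complex and 0.20 for dynein light chains, which had 0.34 with a pseudocount of 0.1. With a library left out it was -0.012 to 0.22 for tubulins, -0.022 to 0.29 for beta tubulins and -0.42 to -0.13 for the gamma tubulin complex. It was then -0.32 to -0.035 for the larger dynein subunits and 0.17 to 0.39 for the light chains. The members lower without overlap numbered 15 to 24 in these settings, with no matching share of all tested genes given.

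Estimates that changed sign were those of Dync1h1 (0.030), Dynlt1f (0.031), Tuba1a (-0.092) and Tubb3 (-0.014) with quantile normalization, Dynlt3 with FPKM (0.026) and median-ratio scaling (0.032), Tubg2 with median-ratio scaling (0.00063), Dynlt1f as part of the summed copies (0.47), and Dync2li1 (-0.11), Dynlrb2 (-0.018), Klc1 (0.016) and Tubgcp4 (0.029) after the length and GC correction, with and without the block. With a library left out, the ranges that crossed 0 were -0.23 to 0.055 for Dync1h1, -0.024 to 0.12 for Dync2h1, -0.17 to 0.17 for Dync2li1, -0.083 to 0.37 for Dynll2, -0.091 to 0.15 for Dynlt1a, -0.33 to 0.16 for Dynlt1f, -0.23 to 0.15 for Dynlt3, -0.999 to 0.017 for Klc2, -0.047 to 0.16 for Tuba1a, -0.85 to 0.13 for Tuba8, -0.091 to 0.33 for Tubb2a, -0.22 to 0.37 for Tubb2b, -0.022 to 0.11 for Tubb3 and -0.34 to 0.088 for Tubgcp4. The sum of Tuba3a and Tuba3b, both at 0, gave no value. A library left out leaves 1 mouse in a group, which was then assumed to vary like the other group. Depth is known only as aligned bases, so no counting interval was given. With 2 mice a genotype, limma borrows the spread across genes.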
